A study of Rattus norvegicus with 28 samples.

Results

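The 2 genes described here are Cd36 and Ephx2, both known for sequence variants in the spontaneously hypertensive rat. They were chosen by their Ensembl gene identifiers, ENSRNOG00000005906 for Cd36 and ENSRNOG00000017286 for Ephx2. No measured value entered the rule, though earlier results of these data were known when it was set. Both identifiers were found, so the description covers 2 of the 32623 gene rows of the deposited matrix. The rows carry identifiers without gene names, and the pairing of these identifiers with Cd36 and Ephx2 is taken as given. No sequence variant was measured here, only RNA level.

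The study asked how genetic background, sex and estrous stage bear on RNA levels in rat brain. Whole-brain total RNA, depleted of ribosomal RNA, was sequenced in 28 libraries from 2 inbred strains, BN-Lx/Cub (BN-Lx) and SHR/OlaIpcv (SHR), with 14 libraries of each. Each strain had 4 females at pre-estrus, 4 at estrus, 4 at post-estrus and 2 males. The titles call the libraries biological replicates but the animals' ages are not stated, and the p-values below measure the spread between these libraries.

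Cd36 encodes a membrane glycoprotein of the scavenger receptor family that takes up long-chain fatty acids and binds oxidised lipoproteins. It is best known from adipose tissue, heart, skeletal muscle and macrophages, and in brain from microglia and blood vessels. A defective Cd36 gene in SHR has been linked to altered fatty acid and glucose metabolism in that strain. Ephx2 encodes soluble epoxide hydrolase, which converts epoxides of arachidonic acid into less active diols, and which is found in brain mainly in astrocytes. Because those epoxides dilate blood vessels, Ephx2 has been studied as a candidate gene in hypertensive rats.

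The start of Cd36 is shown because its RNA was close to the limit of detection in every library. The 250 bases upstream of the start in RefSeq, on build GRCr8, chr4:18246332-18246581, plus strand, are printed 5′ to 3′, with a match to TATAAA on the opposite strand in capitals.
Cd36 upstream: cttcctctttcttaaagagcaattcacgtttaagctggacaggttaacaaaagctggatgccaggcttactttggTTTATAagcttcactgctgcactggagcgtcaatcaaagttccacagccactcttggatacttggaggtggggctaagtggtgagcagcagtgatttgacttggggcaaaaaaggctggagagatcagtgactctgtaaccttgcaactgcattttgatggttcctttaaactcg
Searched on both strands, TATAAA occurred in 12.9% of 33469 rat upstream windows of this length, CCAAT in 34.0% and AGGTCA in 14.1%. The Cd36 window held TATAAA and neither of the other motifs. A match is a description of letters and not of a bound site. Among genes that RefSeq classes as protein-coding, Cd36 lies next to Gnat3 on one side and to Cd36l1 on the other. LOC134486712 and Cd36-ps1 follow, so genes of similar name stand near it. Ephx2 lies on chromosome 15 between Adam2 and Chrna2 in the same assembly, again among protein-coding genes only.

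Libraries held between 43410563 and 90667238 expected counts, the read numbers that RSEM assigns to each gene. Spike-in RNAs took 1.465% to 6.051% of them. The 8 most abundant RNAs took 46.5% ± 2.48 of the gene counts in BN-Lx females and 41.4% ± 3.07 in SHR females (SD, n = 12 each). The sample descriptions end in b35 or b37, a suffix whose meaning is not stated, and the fits below carry it as a term. Levels are given as CPM, counts relative to the library total after TMM scaling, and a level of 3 counts corresponded to 0.0358 to 0.0771 CPM.

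Cd36 RNA was at or near 0 in whole brain of both strains. The 14 BN-Lx libraries held 14.92 expected counts for Cd36 in all and the 14 SHR libraries 33.15. The gene was too low for the filter of the main fit, and no strain difference was called for it. In bulk tissue, fewer cells of a type and less RNA per cell cannot be told apart.

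In BN-Lx, Cd36 had 12.8, 0, 0 and 0.13 expected counts at pre-estrus in replicates 3, 5, 7a and 7b. At estrus it had 1.35 in replicate 4 and 0 in the other BN-Lx libraries, and at post-estrus 0.64 in replicate 3 and 0 in the rest. Both BN-Lx males were at 0. So 1 library, pre-estrus replicate 3, held most of the BN-Lx counts. The files give Cd36 2 transcripts and a length per library, which RSEM averages over them by abundance. That length was 2552 bases in BN-Lx pre-estrus replicate 3 and 1419 bases in the 13 other libraries of either strain with Cd36 above 0. RSEM thus assigned the 12.8 counts of that library to a different transcript from all the rest. In the same library the row ENSRNOG00000040108, which shares reads with Cd36 as described below, had a length of 1419 bases. Whether another Cd36 transcript was present there, or shared reads were only divided otherwise between the rows, was not tested.

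In SHR, Cd36 had 7.62, 1.18, 2.10 and 1.20 expected counts at pre-estrus in replicates 10, 11, 12 and 8. At estrus it had 4.81, 4.92, 3.81 and 0 in replicates 11, 5, 6 and 9. At post-estrus it had 3.94 in replicate 8 and 0 in replicates 12, 13 and 6, and the males had 2.34 and 1.23. SHR counts were small but spread over more libraries, and the strains overlapped at every stage.

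**Figure D1:**
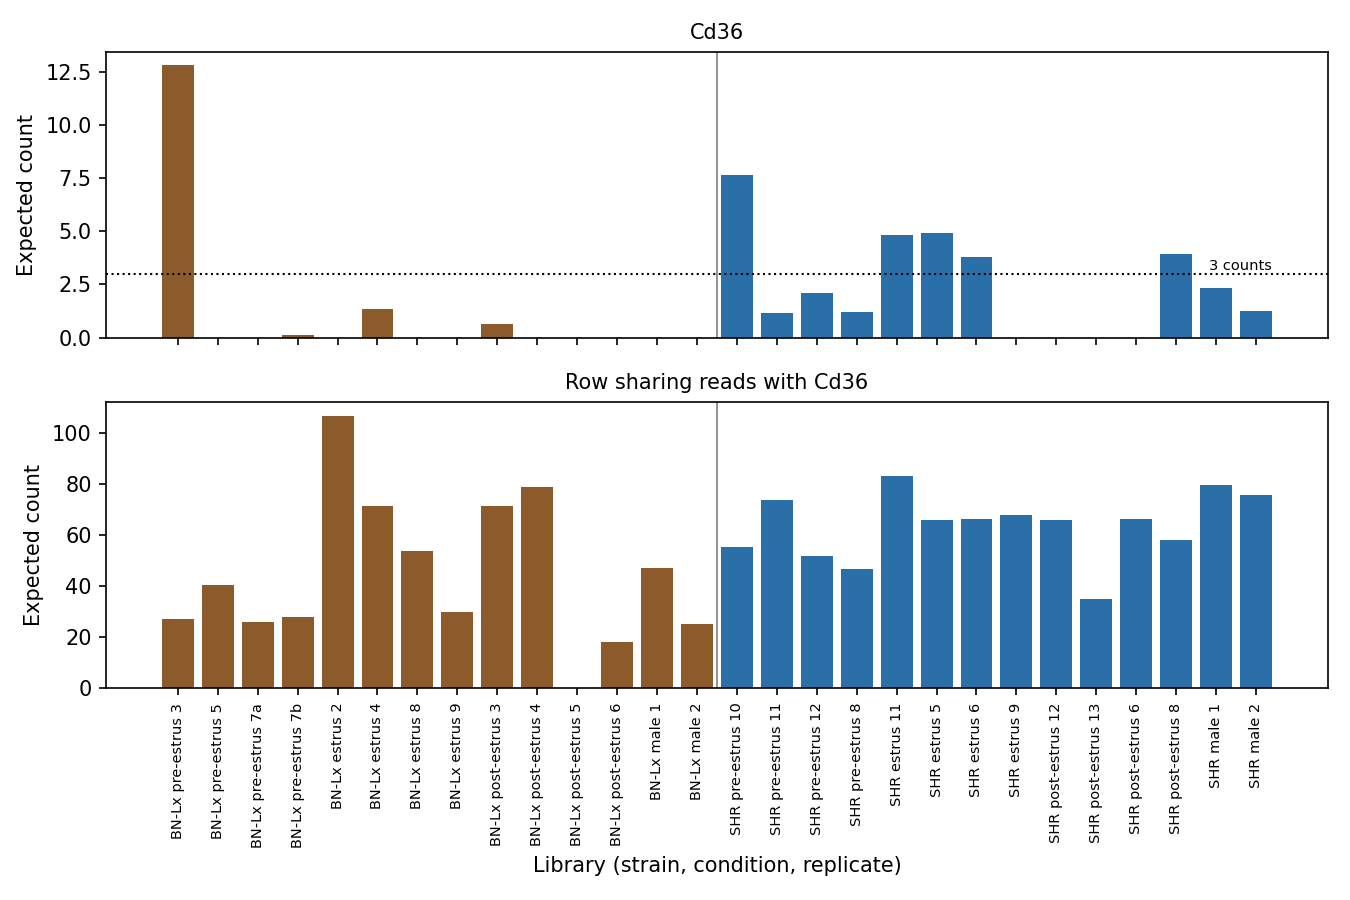
Expected counts in each library, 1 bar per library in order of strain and condition, for Cd36 (upper panel, with a dotted line at 3 counts) and for the row ENSRNOG00000040108 that shares reads with it (lower panel). BN-Lx pre-estrus replicate 3 stands highest for Cd36 at 12.8, and 10 of 14 SHR libraries are above 0 against 4 of 14 BN-Lx libraries.

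Cd36 was above 0 in 10 of 14 SHR libraries and in 4 of 14 BN-Lx libraries, a difference that did not pass Fisher's exact test (two-sided p = 0.057, adjusted over 4 tests 0.22). At least 3 counts were seen in 5 of 14 SHR and 1 of 14 BN-Lx libraries (two-sided Fisher's exact p = 0.165, adjusted 0.22). Among females the gene was above 0 in 8 of 12 SHR and 4 of 12 BN-Lx libraries (two-sided Fisher's exact p = 0.22).

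On the CPM scale SHR females averaged 0.0416 ± 0.0418 and BN-Lx females 0.0266 ± 0.0818 (SD, n = 12 each), and a two-sided permutation test found p = 0.681. Without BN-Lx pre-estrus replicate 3, the library with the highest Cd36 value, the BN-Lx mean was 0.00302 ± 0.00648 and the unadjusted permutation p was 0.00394. That library was picked from the values tested, so this p shows only how far 1 library moved the test. Within suffix b35 the means were 0.0433 in SHR and 0.0571 in BN-Lx (exact permutation p = 0.851), and within b37 0.0391 and 0.00474 (exact permutation p = 0.0227). All of these means are near or under the level of 3 counts, so no fold change is given.

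In edgeR's quasi-likelihood test without a filter on low counts, the Benjamini-Hochberg adjusted p for strain in females was 0.544, where 6.3% of 24553 genes passed 0.05. Single libraries moved this value: the adjusted p was 0.0712 (unadjusted 0.00484) without BN-Lx pre-estrus replicate 3, and 1 (unadjusted 0.727) without SHR post-estrus replicate 8, the only SHR post-estrus library above 0. Either removal left the other libraries of that strain and stage all at 0 after rounding, so these p-values rest on a group without counts. Strain in males gave an adjusted p of 0.720 in edgeR, where 0.472% of genes passed, with both BN-Lx males at 0. Strain at pre-estrus, estrus and post-estrus gave 1, 0.633 and 0.931, where 1.51%, 1.31% and 1.54% of genes passed. Neither estrous stage in BN-Lx or SHR, nor sex, nor a strain difference varying over conditions was called for Cd36 (edgeR adjusted p 0.995 to 1), where 0%, 0.0244% and 0% of genes passed.

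None of the 14 Cd36 values above 0 was a whole number, whereas 70.2% of the 24702 gene rows above 0 were whole in every library. RSEM writes fractions where reads match more than 1 gene. The row ENSRNOG00000040108, to which the files give 10 transcripts and no name, brought Cd36 to a whole number (within 0.015) in 13 of those 14 libraries, and the next best row did so in 4. The share of Cd36 in the sum of both rows reached 32.0% in BN-Lx pre-estrus replicate 3 and was at most 12.09% in SHR. The Cd36 values are therefore uncertain by reads that could belong to either row.

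The partner row was higher than Cd36 in all but 1 of the libraries, BN-Lx post-estrus replicate 5, in which both were at 0. In BN-Lx it held 27.2, 40.3, 26 and 27.87 expected counts at pre-estrus, 107, 71.65, 54 and 30 at estrus, 71.36, 79, 0 and 18.04 at post-estrus, and 47 and 25 in males. In SHR it held 55.4, 73.82, 51.9 and 46.8 at pre-estrus, 83.19, 66.08, 66.19 and 68 at estrus, 65.93, 35, 66.53 and 58.06 at post-estrus, and 79.66 and 75.77 in males. The strains overlapped at estrus and post-estrus, while at pre-estrus and in males every SHR library exceeded every BN-Lx library, also in CPM. How many of all genes separate in this way was not counted, so the separation is not read as a result. Neither separation was called (edgeR adjusted p = 0.778 at pre-estrus and 0.654 in males, where 2.5% and 0.8% of the 18134 genes kept by a filter on low counts passed 0.05).

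Among females the partner row averaged 1.07 ± 0.347 CPM in SHR and 0.776 ± 0.479 in BN-Lx (SD, n = 12 each; two-sided permutation p = 0.0994). Its log2 fold change, SHR over BN-Lx, was 0.63 ± 0.35 (SE), with a 95% interval of -0.09 to 1.36 and an edgeR adjusted p of 0.333. Summed with Cd36, the level was 1.11 ± 0.358 CPM in SHR and 0.802 ± 0.479 in BN-Lx (SD, n = 12 each; two-sided permutation p = 0.0874). Counting the 2 rows as 1 gave no call for strain in females (edgeR adjusted p = 0.371).

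Ephx2, the epoxide hydrolase gene, was expressed in every library at a moderate level and did not differ detectably between strains. Its counts ran from 291 to 850 per library, and all 28 were whole numbers, so no shared reads showed in its row. The files give it 1 transcript. On the TPM scale, which divides by length, 48.5% of the 18134 genes kept by the filter had a lower mean.

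At pre-estrus Ephx2 stood at 11.3, 7.43, 7.81 and 9.17 CPM in BN-Lx replicates 3, 5, 7a and 7b, and at 9.83, 6.51, 8.97 and 9.80 CPM in SHR replicates 10, 11, 12 and 8. At estrus it stood at 8.55, 5.90, 10.3 and 12.9 CPM in BN-Lx replicates 2, 4, 8 and 9, and at 8.64, 12.9, 7.99 and 12.0 CPM in SHR replicates 11, 5, 6 and 9. The lowest and the highest BN-Lx values were both at estrus. At post-estrus it stood at 9.10, 10.1, 7.43 and 7.34 CPM in BN-Lx replicates 3, 4, 5 and 6, and at 8.96, 11.8, 9.34 and 6.09 CPM in SHR replicates 12, 13, 6 and 8. Males had 10.6 and 8.46 CPM in BN-Lx, and 7.86 and 9.44 CPM in SHR. The strains overlapped in every condition.

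**Figure D2:**
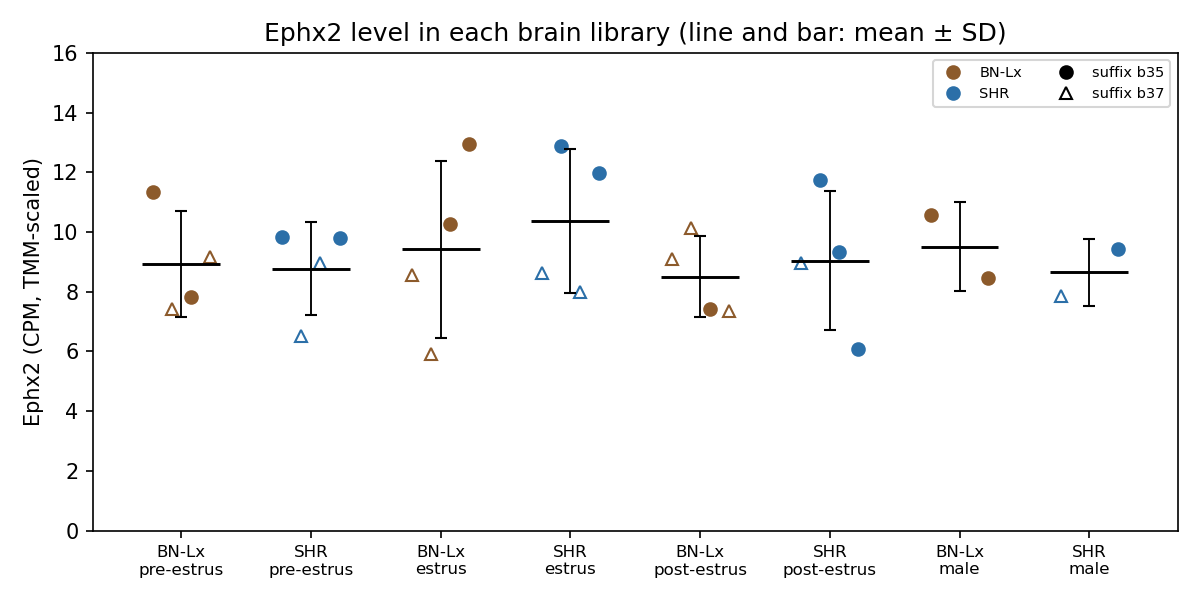
Ephx2 level in TMM-scaled CPM in each library, by strain and condition, with 1 point per library, its shape giving the suffix, and the group mean with its SD. All 8 groups overlap, with means from 8.50 in BN-Lx post-estrus to 10.4 in SHR estrus.

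Ordered by mean, the groups ran from BN-Lx post-estrus at 8.50 ± 1.36 CPM through SHR male at 8.65, SHR pre-estrus at 8.78 ± 1.56, BN-Lx pre-estrus at 8.94 ± 1.76 and SHR post-estrus at 9.04 ± 2.32. BN-Lx estrus followed at 9.42 ± 2.96, BN-Lx male at 9.51 and SHR estrus at 10.4 ± 2.42 (SD for the stages, n = 4; the 2 males of each strain are given above). Every pair of neighbours in this order overlapped, and single libraries ran from 5.90 to 12.9 CPM.

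Over all females Ephx2 averaged 9.40 ± 2.07 CPM in SHR and 8.95 ± 1.97 in BN-Lx (SD, n = 12 each; two-sided permutation p = 0.593). The log2 fold change, SHR over BN-Lx, was 0.01 ± 0.12 (SE), with a 95% interval of -0.23 to 0.26, or 0.853 to 1.19 times. Its edgeR adjusted p was 0.976, in a comparison where 9.51% of 18134 genes passed 0.05.

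In males the log2 fold change of Ephx2 was 0.01 ± 0.29 (SE), with a 95% interval of -0.59 to 0.61 and an edgeR adjusted p of 0.998, where 0.8% of genes passed. At pre-estrus it was -0.03 ± 0.20 (-0.45 to 0.38), at estrus 0.14 ± 0.20 (-0.27 to 0.56) and at post-estrus -0.07 ± 0.21 (-0.51 to 0.36). Their edgeR adjusted p-values were 0.971, 0.919 and 0.923, where 2.5%, 2.24% and 2.5% of genes passed. The intervals at single stages and in males are wider than over all females.

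**Figure D3:**
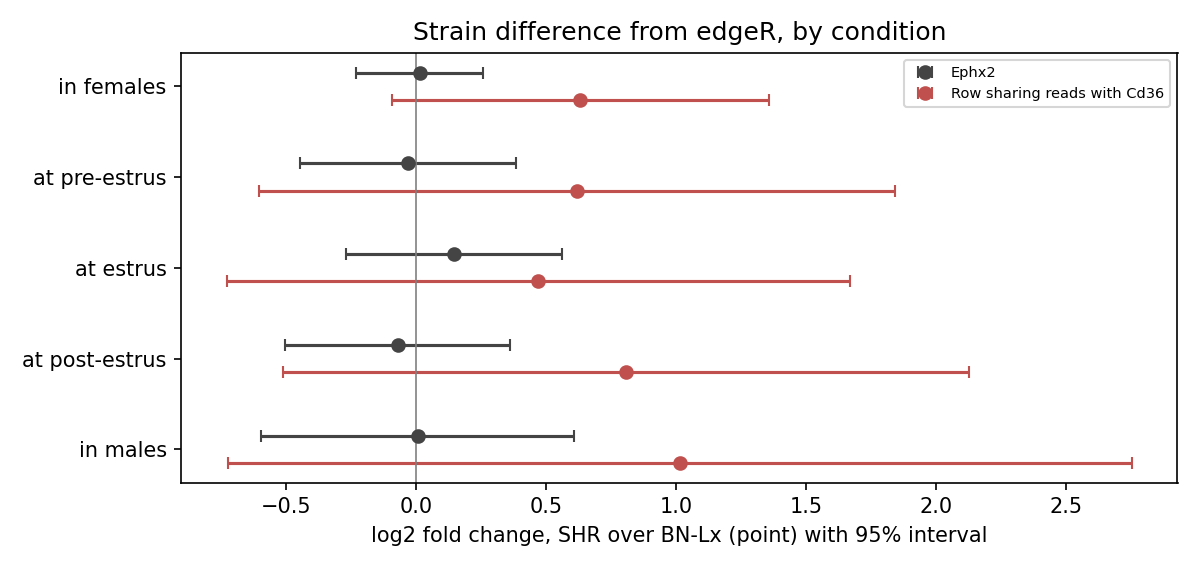
Log2 fold change between strains, SHR over BN-Lx, from edgeR for Ephx2 and for the row that shares reads with Cd36, with 95% intervals, in all females, in males and at each stage. The Ephx2 interval holds 0 in each of the 5 comparisons, from -0.23 to 0.26 in females and from -0.59 to 0.61 in males.

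Estrous stage did not change Ephx2 detectably in BN-Lx (edgeR adjusted p = 0.995, unadjusted 0.968) or in SHR (adjusted p = 1, unadjusted 0.402), comparisons in which no gene passed. In SHR the log2 difference of estrus from pre-estrus was 0.23 ± 0.20 (SE) and of post-estrus from estrus -0.25 ± 0.20 (SE). Males differed from females by -0.08 ± 0.23 (SE) in BN-Lx and by -0.09 ± 0.22 (SE) in SHR on the log2 scale, and sex in either strain gave an edgeR adjusted p of 0.971, where 0.0331% of genes passed. The strain difference was not shown to vary over the 4 conditions (edgeR adjusted p = 0.975).

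The deposited TPM gave a different picture for Ephx2. SHR females averaged 2.68 ± 0.610 TPM and BN-Lx females 2.14 ± 0.386 (SD, n = 12 each), a ratio of 1.25 (two-sided permutation p = 0.0191, adjusted over 7 measures 0.134). The ratio was in the same direction within suffix b35, at 2.71 against 2.15 (exact permutation p = 0.152), and within b37, at 2.64 against 2.14 (exact permutation p = 0.0783). Over 11796 genes with a mean of at least 1 TPM in each strain, the median SHR to BN-Lx ratio was itself 1.18, or 0.24 on the log2 scale, against 0.32 for Ephx2. Relative to that median, Ephx2 was higher by 0.09 on the log2 scale, and 73.0% of those genes had a lower ratio.

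The deposited FPKM of Ephx2 averaged 4.78 in SHR and 4.22 in BN-Lx females (two-sided permutation p = 0.188, adjusted 0.329). Per 1000 spike-in counts, Ephx2 averaged 0.290 in SHR and 0.329 in BN-Lx females, in the opposite order (two-sided permutation p = 0.577, adjusted 0.681). The direction of the Ephx2 difference therefore turned with the scale. The share of the 8 most abundant RNAs differed between the strains as given above, and its part in the TPM difference was not tested.

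**Figure D4:**
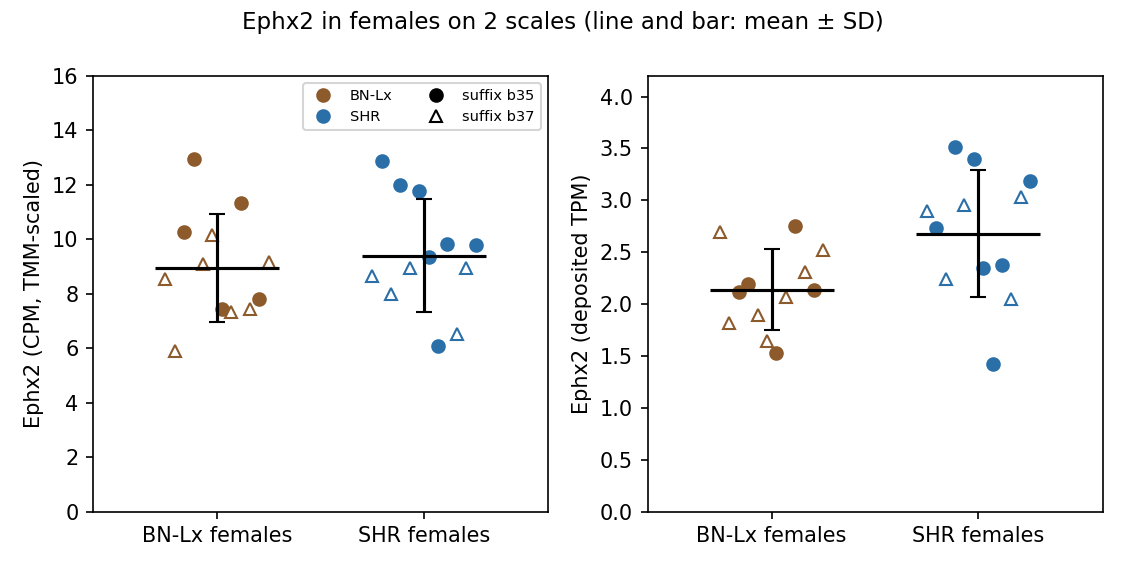
Ephx2 in females of each strain, in TMM-scaled CPM (left) and in deposited TPM (right), with 1 point per library, its shape giving the suffix b35 or b37, and the mean with its SD (n = 12 each). The strain means are 9.40 against 8.95 in CPM and 2.68 against 2.14 in TPM, SHR first.

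On the CPM scale the mean Ephx2 level of females was lower with suffix b37 than with b35 in both strains. BN-Lx females stood at 9.96 ± 2.34 CPM in 5 b35 libraries and 8.23 ± 1.43 in 7 b37 libraries, and SHR females at 10.2 ± 2.26 in 7 b35 libraries and 8.21 ± 1.03 in 5 b37 libraries (SD). The log2 difference, b37 minus b35, was -0.30 ± 0.12 (SE), with a 95% interval of -0.54 to -0.06. It did not pass correction over all genes (edgeR adjusted p = 0.475, unadjusted 0.0177), where 0.0551% of genes passed, or 0.0285% without the filter on low counts. In deposited TPM the suffix means lay closer, at 2.15 in b35 and 2.14 in b37 for BN-Lx females, and 2.71 and 2.64 for SHR females.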

How the data were processed

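Brain RNA was sequenced as paired-end, strand-preserving libraries with 4 libraries per lane, per the labels' protocols. The submitters' processing notes name cutadapt and RSEM without versions. Aligner, build and gene models are not stated in what was used here. The extraction protocol mentions male animals only, and groups were taken from each sample's own labels, which give both sexes.

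The authors deposited RSEM expected counts per gene, in a matrix of 32715 rows (32623 genes and 92 spike-ins) and per-library tables that differ from it by at most 0.5 counts and not at all for the 2 genes. The per-library tables also hold the authors' deposited TPM and FPKM values, relative to each library's total, and transcript lengths. Depth was 43410563 to 90667238 expected counts per library. Expected counts were rounded to whole numbers and spike-in rows left out of library sizes. Fisher's test compared numbers of libraries above a count limit, so its unit is the library. The count limits themselves cover counting error only.

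edgeR 4.0.16 in R 4.3.3 was used for the quasi-likelihood test (robust) on all 28 libraries, with 8 strain-by-condition groups and the description suffix, TMM scaling, a minimum of 10 counts in filterByExpr, 18134 genes kept and Benjamini-Hochberg adjustment over all of them, with a threshold of 0.05. The fit had 19 residual degrees of freedom. Strain in females weighted the 3 stages equally. Cd36 did not pass the filter, so its tests come from the fit without a filter, on 24553 genes with at least 1 count. Single measures were compared with permutation tests in scipy 1.17.1 (Python 3.11.15; 100000 resamples, exact within a suffix). Alternatives used limma 3.58.1, DESeq2 1.42.0, other scalings, other covariates, replicate blocks and leaving out each library. The strain comparison in females was also run on simulated counts for genes kept by the filter. That run did not cover the other comparisons or the fit without a filter, which gave the Cd36 tests.

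The members, lists and tests were chosen with earlier results of these data known. The named genes are the 2 members and, for each, the 2 genes of highest Pearson correlation of log2 CPM (prior count 2) over libraries and over residuals. The row sharing reads with Cd36 was singled out after its values were seen. Of 14 gene lists with 125 entries, 0 could be matched to the files, since none of the 47357 RefSeq rows carries an Ensembl identifier, so pathway genes and cell type markers, the tissue's own included, are not used here. Promoter sequence is from RefSeq, build GRCr8, where Cd36 was found and Ephx2 is not used here.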

Additional observations from a re-analysis of the deposited data

Results flagged for a closer look

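In 18 tests of groups of 4 libraries, 7 found a library apart from the other 3 in its group. The rule flags about 1 in 20 by chance for normally distributed values. Cd36 groups made mostly of 0 are not of that kind, so that rate is no measure for them. For Cd36 the library apart was the highest of its group in each case: BN-Lx pre-estrus replicate 3 at 0.286 CPM, BN-Lx estrus replicate 4 at 0.0194, BN-Lx post-estrus replicate 3 at 0.0118, SHR pre-estrus replicate 10 at 0.101 and SHR post-estrus replicate 8 at 0.0681. In the BN-Lx estrus and both post-estrus groups the other libraries were all at 0, so any count at all sets a library apart there. Of these 5 values, those of BN-Lx estrus replicate 4 and BN-Lx post-estrus replicate 3 came from fewer than 3 counts. For the row that shares reads with Cd36, SHR pre-estrus replicate 11 was high at 1.56 CPM and SHR post-estrus replicate 13 was low at 0.508 CPM. No Ephx2 group held such a library.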

How the results depend on the processing

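Over 18 results for Cd36 and Ephx2 and 696 alternative values, 0 passed the threshold of 0.05 on the adjusted p, and 50 changed direction. The tests of stage, sex and a varying strain difference are among the 696 but have no direction to change. For Ephx2 in males, 12 of 28 values with 1 library left out and 6 of 10 other alternatives changed direction. For Ephx2 in females, 9 of 28 and 4 of 12 did so. The lowest adjusted p was 0.0712, for Cd36 in females without BN-Lx pre-estrus replicate 3 (edgeR), and 0.413 among the count-based fits for Ephx2 between strains. The cause of the changes below was not tested. For Ephx2 in females the log2 fold change turned to -0.0155 with limma, -0.26 with spike-in scaling and -0.16 with the share of the 8 most abundant RNAs as a covariate. In males it turned to -0.14 without the suffix term, -0.21 with spike-in scaling, -0.0096 with the 8-RNA share, -0.013 in b35 libraries, -0.0272 with only the libraries compared and -0.0236 without a filter. At pre-estrus it turned to 0.0378 in b35 libraries, and at post-estrus to 0.087 without the suffix term, 0.29 in b35 libraries and 0.13 with only the libraries compared. The deposited TPM gave 0.32 in females (permutation p = 0.0191, adjusted 0.134), an alternative chosen after seeing the data. For Cd36 the direction at pre-estrus turned with limma (adjusted p = 0.495), the 8-RNA share (0.724), b37 libraries (0.723), only the libraries compared (0.990) and the summed rows (0.818, chosen after seeing the data), and at post-estrus with limma (0.998) and in b37 libraries (1). The row sharing reads with Cd36 passed in b35 libraries alone (edgeR adjusted p = 0.00166) and in no other alternative. Its BN-Lx post-estrus group was then 1 library at 0, so the fitted fold is not given, and the b35 female means of 1.00 CPM in SHR and 0.528 in BN-Lx did not pass an exact permutation test (p = 0.0505).

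Genes called between strains in females numbered 1724 (830 higher), against 481 (119 higher) with spike-in scaling, 4569 (2139 higher) with the 8-RNA share and 474 (193 higher) in b37 libraries. In males they numbered 145, against 316 with DESeq2, 747 with limma, 34 (12 higher) with spike-in scaling, 281 with the 8-RNA share, 55 in b35 libraries and 52 with only the libraries compared.

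Leaving out each library moved the Ephx2 log2 fold change from -0.0582 to 0.068 in females, -0.15 to 0.18 in males, -0.13 to 0.0506 at pre-estrus, 0.0032 to 0.28 at estrus and -0.27 to 0.0781 at post-estrus. It moved the Cd36 adjusted p from 0.0712 (without BN-Lx pre-estrus replicate 3) to 1 (without SHR post-estrus replicate 8) in females, 0.576 to 1 at pre-estrus and 0.698 to 1 at post-estrus, and the genes called from 1472 to 1841 in females and 61 to 176 in males. Without BN-Lx male replicate 1 or 2 the males gave 62 calls each, and without SHR male replicate 1 or 2 they gave 61 and 74.

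Replicate numbers in the titles did not pair the libraries: over 18 same-numbered pairs the correlation of deviations ran from -0.335 to 0.156, with 2 over 0.1. With the title number as a replicate block, 150 genes (64 higher) were called in females and 51 in males. Under the same block the Ephx2 log2 fold change in females was -0.0373, and the Cd36 direction at pre-estrus turned (adjusted p = 1). The number in the descriptions, as a block for stage and sex, changed no call. No fit in b37 libraries was run for males, which lack a BN-Lx male there. The planned test of Cd36 transcript length between strains was left out, because in the 14 libraries at 0 the length is a fixed 1985.5 bases that measures no transcript. Cd36 means lie near or under 3 counts per library.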

Other observations

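The genes whose log2 CPM followed Ephx2 most closely over the 28 libraries were ENSRNOG00000001253 (Pearson r = 0.82) and ENSRNOG00000020235 (r = 0.79), and over residuals from group and suffix ENSRNOG00000001253 (r = 0.84) and ENSRNOG00000012247 (r = 0.84). For Cd36 they were ENSRNOG00000051626 (r = 0.70) and ENSRNOG00000048421 (r = 0.65), and over residuals ENSRNOG00000051626 (r = 0.86) and ENSRNOG00000049878 (r = 0.81). Without BN-Lx pre-estrus replicate 3 the Cd36 values were 0.50, 0.51, 0.79 and 0.78 in that order. These are the highest of about 18134 correlations, and the libraries share strain, depth and suffix. Cd36 had 0 expected counts in 14 of 28 libraries, and the 0.13 of BN-Lx pre-estrus replicate 7b was rounded to 0 here.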
